A study of Mus musculus with 35 samples.

Results

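The 10 genes described here mark the layers of the cerebral cortex and were read out of 14870 genes measured by bulk RNA sequencing in the medial prefrontal cortex (mPFC) of mice. They were taken by name and not by their values, though with earlier results of these data known. Of the 10, 5 stand for the upper layers (Cux1, Cux2, Rasgrf2, Pou3f2 and Rorb) and 5 for the deep layers (Fezf2, Bcl11b, Tle4, Foxp2 and Ntsr1). All 10 were present in the deposited matrix in all 35 libraries, so no member was lost to a filter on low values. None of the 10 passed the test for a difference between genotypes or treatments in any of 16 comparisons. What the 10 genes did show was a spread between libraries of the same group in which the upper and the deep genes moved in opposite directions.

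The mice were wild type (WT) or deficient in Shank3 (KO), which encodes a scaffold protein of excitatory synapses, and each genotype was given water (control), antibiotics (abx), acetate, or both (abx_and_acetate). The series' title names social behaviour and gene regulation as its subject. The groups held 6 WT_control, 4 KO_control, 4 WT_abx, 3 KO_abx, 5 WT_acetate, 5 KO_acetate, 4 WT_abx_and_acetate and 4 KO_abx_and_acetate libraries, from 15 females and 20 males. The KO mice are described only as Shank3 deficient, and neither the allele, the strain, the age, the doses nor the length of treatment is given in the sources used here. The tissue was taken as punches, so a punch could hold neighbouring tissue. Whether every library came from its own animal is not stated, so the p-values speak only for the spread among these libraries, which may be technical. Replicate numbers only name a library.

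The cortex is a stack of sheets of excitatory neurons. Neurons of the upper layers connect cortical areas with each other, and neurons of the deep layers send axons to the thalamus, brainstem and other targets below the cortex. The genes used here are mostly transcription factors that set or maintain these identities. Cux1 and Cux2 encode cut-like homeodomain factors of upper layer neurons, Pou3f2 (also called Brn2) encodes a POU factor needed for upper layer neurons to form, Rorb encodes a nuclear receptor of layer IV, and Rasgrf2 encodes a guanine nucleotide exchange factor of upper layer cells. Fezf2 and Bcl11b (also called Ctip2) specify the layer V neurons that project below the cortex, Tle4 encodes a co-repressor found in layer VI, Foxp2 encodes a forkhead factor of layer VI, and Ntsr1 encodes a neurotensin receptor that marks layer VI neurons projecting to the thalamus. Bcl11b and Foxp2 are also well known in the medium spiny neurons of the striatum, and Cux1, Cux2 and Pou3f2 are not exclusive to excitatory neurons.

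The RefSeq table of promoters (GRCm38.p6, 300 bases around a transcription start) matched 9 of the 10 genes with 12 entries, Foxp2 not among them. The promoters of a pair of upper layer genes that moved together, Cux2 and Rasgrf2, and of a pair of deep layer genes that moved together, Bcl11b and Tle4, are shown with each CG dinucleotide in capitals. They lie at chr5:122049802-122050101 (Cux2, minus strand), chr13:92131779-92132078 (Rasgrf2, minus strand), chr12:108003365-108003664 (Bcl11b, minus strand) and chr19:14598134-14598433 (Tle4, minus strand).
Cux2: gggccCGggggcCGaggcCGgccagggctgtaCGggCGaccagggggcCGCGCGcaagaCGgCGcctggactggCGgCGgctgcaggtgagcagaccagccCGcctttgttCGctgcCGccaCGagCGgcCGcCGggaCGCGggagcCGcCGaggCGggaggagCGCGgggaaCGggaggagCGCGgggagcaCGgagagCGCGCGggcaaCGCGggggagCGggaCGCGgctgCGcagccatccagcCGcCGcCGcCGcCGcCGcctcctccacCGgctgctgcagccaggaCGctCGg
Rasgrf2: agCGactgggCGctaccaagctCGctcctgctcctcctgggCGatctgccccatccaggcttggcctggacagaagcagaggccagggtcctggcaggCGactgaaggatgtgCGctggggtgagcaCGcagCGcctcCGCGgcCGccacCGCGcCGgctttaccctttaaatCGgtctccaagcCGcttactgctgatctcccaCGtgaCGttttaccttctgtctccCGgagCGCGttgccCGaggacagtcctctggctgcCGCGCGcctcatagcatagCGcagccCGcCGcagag
Bcl11b: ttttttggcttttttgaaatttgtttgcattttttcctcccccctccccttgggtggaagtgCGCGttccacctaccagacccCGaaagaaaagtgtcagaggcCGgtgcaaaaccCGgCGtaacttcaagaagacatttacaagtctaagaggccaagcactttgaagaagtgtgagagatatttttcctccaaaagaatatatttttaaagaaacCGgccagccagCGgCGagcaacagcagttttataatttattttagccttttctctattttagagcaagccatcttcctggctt
Tle4: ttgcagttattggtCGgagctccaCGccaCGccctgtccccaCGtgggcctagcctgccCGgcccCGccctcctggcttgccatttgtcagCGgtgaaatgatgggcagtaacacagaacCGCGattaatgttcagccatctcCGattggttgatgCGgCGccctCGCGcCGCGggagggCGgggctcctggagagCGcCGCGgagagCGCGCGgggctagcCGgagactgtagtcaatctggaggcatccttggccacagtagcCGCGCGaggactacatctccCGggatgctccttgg
CG dinucleotides were dense in most of them. The 12 entries held a median of 23.5 CG dinucleotides against 7 over all 32851 entries, and 9 of the 12 held at least 20, against 26.5% of all entries. The first starts of Cux2, Rasgrf2, Tle4 and Bcl11b held 48, 28, 28 and 9, with 80.3% G or C in Cux2 and 43.0% in Bcl11b. Second starts held 44 in Tle4, 5 in Rorb and 4 in Cux2. High and low counts occurred on both sides, so this feature did not separate upper from deep layer genes.

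Because most of the 10 genes encode DNA-binding factors, 4 short motifs of their families were searched on both strands. The AGGTCA site of ROR receptors occurred in 16.3% of all entries and the octamer ATGCAAAT of POU factors in 1.74%, and neither occurred in the 12. The forkhead core TGTTTAC occurred in 3.65% of all entries and once among the 12, in that of Cux1 (chr5:136565932-136566231, minus strand). The CUX site ATCGAT, which reads the same on both strands, occurred in 0.93% of all entries and once among the 12, at a start of Cux2 that lies downstream of the first (chr5:122047776-122048075, minus strand). That entry is shown with the ATCGAT in capitals, as the only match of a factor's motif in the promoter of a gene of its own family.
Cux2 downstream start: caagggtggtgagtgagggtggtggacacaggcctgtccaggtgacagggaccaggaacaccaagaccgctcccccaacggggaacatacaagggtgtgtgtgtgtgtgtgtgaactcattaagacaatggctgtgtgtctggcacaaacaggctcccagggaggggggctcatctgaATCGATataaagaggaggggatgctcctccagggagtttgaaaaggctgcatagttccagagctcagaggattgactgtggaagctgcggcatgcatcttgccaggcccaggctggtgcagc
These matches are letters in a window and not sites of binding. The motifs were chosen with the values of the genes known.

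Library depth, recovered from the matrix, was 12.8 to 28.0 M reads, and RNA integrity numbers were 8.8 to 9.3. The Shank3 level was between 4.07 and 5.11 in all KO libraries, as log2 CPM (counts per 1 M reads of a library), and between 7.48 and 8.85 in the WT libraries. In the WT group, 3 libraries (WT_abx 4, WT_acetate 2 and WT_acetate 5) had the lowest WT Shank3 levels together with Acr levels of 3.62 to 4.56 against -0.46 to 0.83 in the other WT libraries, and in 4 libraries (WT_acetate 2, 4 and 5 and WT_abx 3) Y-linked genes went against the labelled sex. The tissue label was checked with 7 markers of excitatory neurons, of which Slc17a7, the vesicular glutamate transporter of cortical neurons, was between 10.48 and 11.06 log2 CPM in every library. One library, KO_acetate 1, stood apart. Its 13 measured markers of striatal medium spiny neurons summed to 1626.1 CPM against 262.0 to 432.3 in the other 34 libraries, and Drd2, a dopamine receptor of striatal neurons, was 4.93 log2 CPM there against -0.94 to 0.70. Its 10 oligodendrocyte markers summed to 9774.1 CPM against 1157.4 to 5036.2, and its 7 excitatory markers to 4727.2 CPM against 6762.6 to 9294.0. Results that rest on KO_acetate 1 are therefore given with and without it. Among the other 34 libraries, KO_acetate 2 had the highest oligodendrocyte sum (5036.2 CPM), the lowest excitatory sum (6762.6 CPM) and the highest Drd2 level (0.70 log2 CPM). Its striatal sum was 309.8 CPM, against a median of 308.3 CPM in the 34. KO_acetate 2 stayed in the results given without KO_acetate 1.

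Each gene's level in the 35 libraries was within a range set more by the library than by the group. Compared per kilobase of exon in the GENCODE vM21 annotation of GRCm38, the mean level was highest for Rasgrf2, at 22.3 CPM per kilobase, followed by Fezf2 at 15.6, Cux2 at 12.2, Tle4 at 7.2, Bcl11b at 7.1, Pou3f2 at 6.2, Cux1 at 3.5, Rorb at 1.7, Ntsr1 at 1.5 and Foxp2 at 0.6. Neighbours in this order such as Tle4, Bcl11b and Pou3f2, or Rorb and Ntsr1, differed by less than the spread between libraries. The same annotation places the upper layer genes Cux1 at chromosome 5, 136248135 to 136567490, Cux2 at chromosome 5, 121856366 to 122050102, Rasgrf2 at chromosome 13, 91880400 to 92131656, Pou3f2 at chromosome 4, 22482780 to 22488366, and Rorb at chromosome 19, 18930605 to 19111196. It places the deep layer genes Fezf2 at chromosome 14, 12342094 to 12348189, Bcl11b at chromosome 12, 107910403 to 108003602, Tle4 at chromosome 19, 14448150 to 14598051, Foxp2 at chromosome 6, 14901349 to 15441977, and Ntsr1 at chromosome 2, 180499976 to 180544980. The lowest library of the lowest gene, Ntsr1, still held 69 reads, and that of Foxp2 held 101. The SD within groups was 0.24 to 0.57 for the 10 genes on the log2 scale, against a median of 0.17 over all genes. Fezf2 was the most variable, with 6.5% of all genes above its SD of 0.57, but without KO_acetate 1 its SD was 0.31 and 21.4% of genes were above it. Ntsr1 (0.47) and Foxp2 (0.45), the layer VI genes with the fewest reads, came next, and their SDs were 0.46 and 0.44 without that library.

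**Figure D1:**
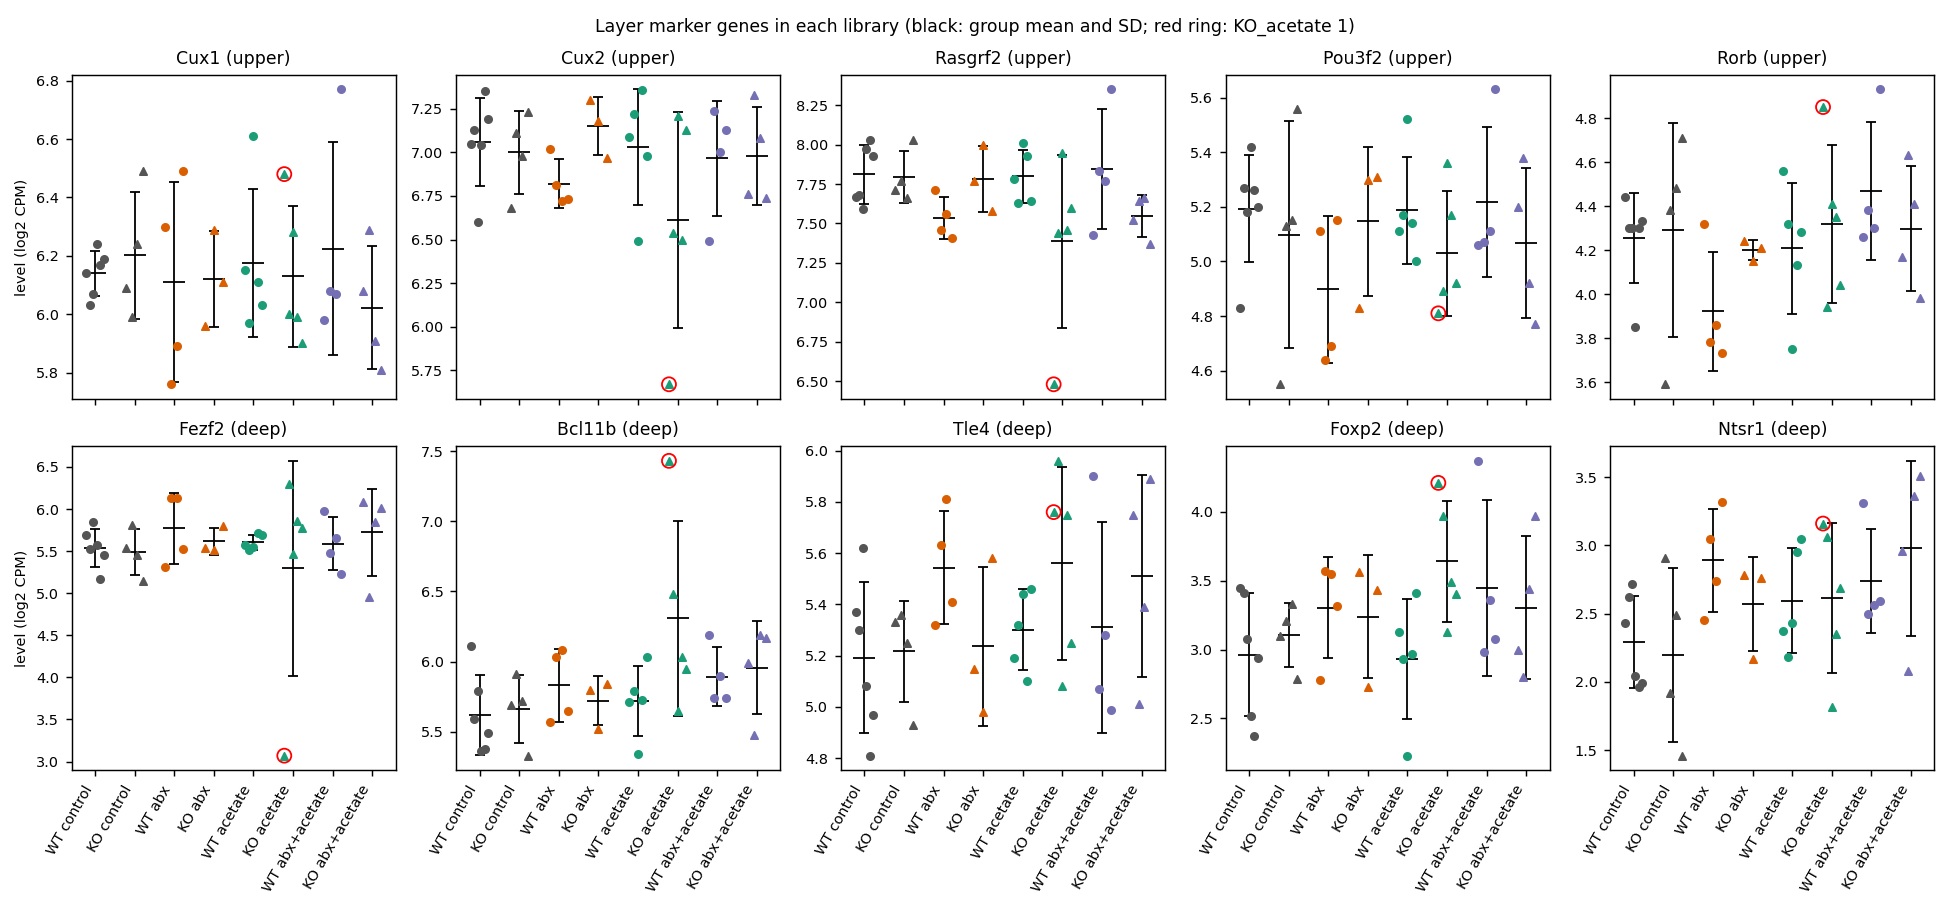
Level of each layer marker gene (y axis, log2 CPM) in each of 35 libraries, by group on the x axis. Circles are WT and triangles KO, colours are treatments, black bars are the group mean and SD, and the red ring is KO_acetate 1. Groups overlap for nearly every gene, and KO_acetate 1 is the lowest of 35 for Cux2 (5.67), Rasgrf2 (6.48) and Fezf2 (3.07) and the highest for Bcl11b (7.43).

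In mice given water, where genotype alone differs, none of the 10 genes had a log2 fold beyond 0.15 in either direction. Among the upper layer genes, Pou3f2 was 5.19 ± 0.20 log2 CPM (SD, n = 6) in WT_control and 5.09 ± 0.42 (n = 4) in KO_control, and Rasgrf2 was 7.81 ± 0.19 and 7.79 ± 0.16. Among the deep layer genes, Bcl11b was 5.62 ± 0.29 and 5.66 ± 0.24, and Tle4 was 5.19 ± 0.29 and 5.22 ± 0.20. The log2 folds of KO over WT ran from -0.10 for Pou3f2 to 0.15 for Foxp2. None of the 10 was called (limma, adjusted p under 0.05), in a comparison where 3 of the 14870 genes, or 0.0202%, were called. The median absolute fold of the 10 was 0.06, and that of all genes was 0.07. The 95% intervals of the 10 reached from -0.76 to 0.72, set by Fezf2 at the lower and Foxp2 at the upper end. The interval of Ntsr1 was also wide (-0.69 to 0.49). Those of Cux1 (-0.24 to 0.37), Pou3f2 (-0.42 to 0.22) and Rasgrf2 (-0.37 to 0.33) were narrower. Changes inside a gene's own interval were not detectable. The SD within groups that enters the interval of Fezf2 was 0.57 with KO_acetate 1 and 0.31 without it. Over all 4 treatments together the folds of KO over WT were -0.14 to 0.17 with intervals from -0.47 to 0.48, and 0 of 10 were called against 0.0202% of all genes. Without KO_acetate 1 these folds were -0.08 to 0.13, with intervals from -0.38 to 0.44.

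The other comparisons also gave no call. In limma's test 0 of the 160 values, 10 genes in each of 16 comparisons, had an adjusted p under 0.05, and the smallest adjusted p was 0.27. At an unadjusted p under 0.05 there were 10 of 160. The share of all genes called was 0.0134% for KO against WT in abx and in abx_and_acetate and for abx against control in KO, 0.00672% for KO against WT in acetate and for acetate against control in WT, and 0.726% for abx_and_acetate against control in WT. In the other 8 comparisons it was 0%. With so few genes called anywhere, a count of 0 among 10 genes is near the background and does not set them apart. The 3 interactions of genotype with a treatment gave folds of -0.42 to 0.57 for the 10 genes, with a smallest unadjusted p of 0.0666 (Bcl11b, acetate, adjusted p 0.997 in limma). Without KO_acetate 1 the interaction of genotype with acetate was 0.29 ± 0.24 (SE) for Bcl11b in place of 0.57 ± 0.30, it turned from -0.26 to 0.35 for Fezf2, and the 10 values ran from -0.23 to 0.43 (adjusted p of 1 each).

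The comparison of KO with WT under acetate held the most values at an unadjusted p under 0.05, 4 of the 10 against 5.97% of all genes. When only the groups compared entered the fit, the count was 1 of the 10, and the share of all genes there is not given here. Of the 5 upper layer genes 4 had folds under 0, and of the 5 deep layer genes 4 had folds above 0. Rasgrf2 had levels of 6.48, 7.44, 7.95, 7.46 and 7.60 log2 CPM in KO_acetate 1 to 5, and of 7.78, 7.63, 8.01, 7.93 and 7.64 in WT_acetate 1 to 5. The KO library at 6.48 is far under all others, and the other 4 overlap with WT. The log2 fold was -0.44 ± 0.17 (SE, adjusted p = 0.827 in limma). Cux2 was 5.67, 6.54, 7.21, 6.50 and 7.13 in KO_acetate and 7.09, 7.22, 6.49, 7.36 and 6.98 in WT_acetate, a fold of -0.45 ± 0.20 (SE, adjusted p = 0.827 in limma). Here too the groups overlap, with WT_acetate 3 about as low as KO_acetate 2 and 4, and KO_acetate 1 under all of them.

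On the deep side, Bcl11b was 7.43, 6.48, 5.65, 6.03 and 5.95 log2 CPM in KO_acetate 1 to 5 and 5.71, 5.79, 5.34, 5.73 and 6.03 in WT_acetate 1 to 5. KO_acetate 1 and 2 are above all WT_acetate libraries, and KO_acetate 3 is under 4 of them. The log2 fold was 0.62 ± 0.21 (SE, adjusted p = 0.827 in limma). Foxp2 was 4.21, 3.97, 3.13, 3.49 and 3.40 in KO_acetate and 3.13, 2.93, 2.23, 2.97 and 3.41 in WT_acetate, a fold of 0.72 ± 0.27 (SE, adjusted p = 0.827 in limma). For Foxp2 KO_acetate 1 and 2 were again the highest. Tle4 and Ntsr1, the other layer VI genes, did not pass an unadjusted p of 0.05. In bulk tissue, fewer cells of a type and less RNA of a gene per cell cannot be told apart.

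Without KO_acetate 1, none of the 10 had an unadjusted p under 0.05 in that comparison, where 2.57% of all genes then did. The fold of Bcl11b was then 0.33 ± 0.17 (SE), that of Foxp2 0.58 ± 0.29, that of Rasgrf2 -0.21 ± 0.14 and that of Cux2 -0.21 ± 0.18, all with an adjusted p of 1 in limma. Fezf2 turned sign, from -0.31 with that library to 0.30 ± 0.19 without it. All 5 upper layer folds were then under 0, and of the 5 deep layer folds that of Ntsr1 was under 0 (-0.10) and the other 4 above it. Without the 3 WT libraries of intermediate Shank3 level the fold of Bcl11b was 0.80 ± 0.25 (SE) and that of Foxp2 0.93 ± 0.32. Rasgrf2 was then at -0.59 ± 0.20 and Cux2 at -0.44 ± 0.24. None of these was called (adjusted p 0.814 for Cux2 and 0.737 for the others in limma). Leaving out the sex-mismatched libraries instead, WT_acetate 2, 4 and 5 among them, gave -0.25 ± 0.27 for Cux2 (adjusted p 0.957 in limma). Rasgrf2 was then at -0.58 ± 0.23, Bcl11b at 0.89 ± 0.28 and Foxp2 at 1.04 ± 0.37, none called. KO_acetate 1 stayed in these fits.

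**Figure D2:**
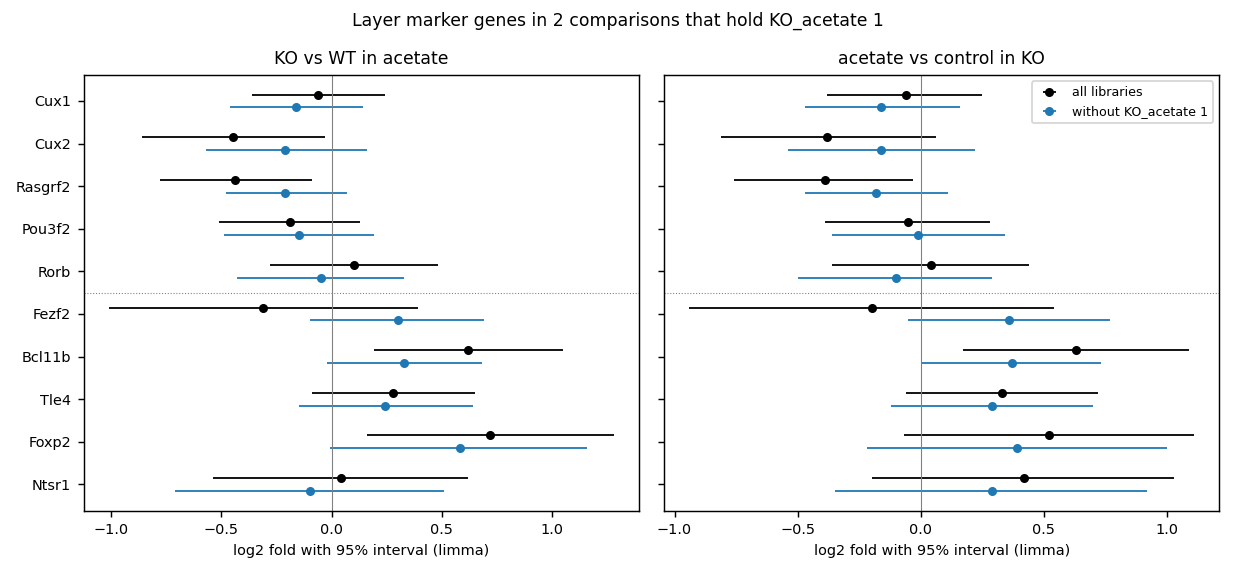
Log2 fold (x axis) of the 10 layer marker genes (y axis, upper layer genes above the dotted line) in the comparisons of KO_acetate with WT_acetate (left) and with KO_control (right), with 95% intervals from limma. Black points use all libraries and blue points leave out KO_acetate 1. Without it Bcl11b moves from 0.62 to 0.33 in the left panel, Fezf2 from -0.31 to 0.30, and the intervals of all 10 genes reach 0 to 2 decimals.

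Acetate against water in KO mice asks what acetate alone did in the mutant, and it shares the KO_acetate libraries with the comparison above, so the directions are not independent of it. Bcl11b was 5.69, 5.91, 5.72 and 5.33 log2 CPM in KO_control 1 to 4, so that KO_acetate 1, 2, 4 and 5 lay above all KO_control libraries and KO_acetate 3 lay among them. The log2 fold was 0.63 ± 0.22 (SE, adjusted p = 0.27 in limma). Rasgrf2 was 7.71, 7.77, 7.66 and 8.03 in KO_control, a fold of -0.39 ± 0.18 (SE, adjusted p = 0.349 in limma). These were 2 of the 10 genes, against 13.0% of all genes at an unadjusted p under 0.05. Without KO_acetate 1 it was 0 of 10 against 9.83%, with a fold of 0.37 ± 0.18 for Bcl11b (SE, adjusted p = 0.498 in limma) and -0.18 ± 0.14 for Rasgrf2 (adjusted p = 0.639). In WT mice, acetate against water gave folds of -0.05 to 0.27 for the 10 genes.

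Under antibiotics in WT mice the folds of the upper and the deep layer genes differed in sign, and none was called. All 5 upper layer genes were lower and all 5 deep layer genes higher in WT_abx than in WT_control, with median folds of -0.27 and 0.34, while the median over all genes was 0.00. One of the 10, Ntsr1, had an unadjusted p under 0.05, against 9.05% of all genes. Its levels were 2.45, 3.05, 2.74 and 3.32 log2 CPM in WT_abx 1 to 4 and 2.43, 2.62, 2.72, 2.04, 1.96 and 1.99 in WT_control 1 to 6. WT_abx 2, 3 and 4 are above all 6 controls and WT_abx 1 is among them. The fold was 0.60 ± 0.29 (SE, adjusted p = 0.545 in limma), and without the libraries of intermediate Shank3 level, WT_abx 4 among them, it was 0.42 ± 0.31 (adjusted p = 0.829). The count of 1 gene at an unadjusted p under 0.05 depended on the fit. It was 5 when only the groups compared entered, 4 without WT_abx 1, and 0 with voom weights or quantile normalization. The shares of all genes in those fits are not given here. In KO mice the same treatment gave folds of -0.08 to 0.36. KO against WT under antibiotics, which shares the WT_abx libraries, split the other way round: all 5 upper layer folds were above 0 (median 0.27) and all 5 deep layer folds under 0 (median -0.16), from -0.34 for Ntsr1 to 0.35 for Cux2. None of these 10 had an unadjusted p under 0.05 (adjusted p 0.995 each in limma).

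Acetate given with antibiotics was compared with antibiotics alone. In WT mice, 2 upper layer genes had an unadjusted p under 0.05, against 6.12% of all genes. Rorb was 4.26, 4.38, 4.30 and 4.93 log2 CPM in WT_abx_and_acetate 1 to 4 and 4.32, 3.78, 3.86 and 3.73 in WT_abx 1 to 4. WT_abx 1 is the one library that overlaps with the other group. The fold was 0.56 ± 0.21 (SE, adjusted p = 0.764 in limma). Pou3f2 was 5.06, 5.07, 5.11 and 5.63 in WT_abx_and_acetate and 5.11, 4.64, 4.69 and 5.15 in WT_abx, a fold of 0.36 ± 0.17 (SE, adjusted p = 0.814 in limma). WT_abx_and_acetate 4, the shallowest library at 12.8 M reads, was the highest for both genes, and without it the folds were 0.39 ± 0.22 (SE, adjusted p = 0.75 in limma) for Rorb and 0.23 ± 0.19 (adjusted p = 0.785) for Pou3f2. In KO mice the 10 folds of the same comparison ran from -0.29 to 0.45.

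Against water, the combined treatment in KO mice gave the largest fold among the 160 values. All 5 upper layer folds were under 0 (median -0.06) and all 5 deep layer folds above 0 (median 0.32). Ntsr1 was 2.96, 2.08, 3.36 and 3.51 log2 CPM in KO_abx_and_acetate 1 to 4 and 2.91, 1.92, 2.49 and 1.46 in KO_control 1 to 4. The 3 highest libraries of the treated group are above all controls and the fourth is among them. The fold was 0.81 ± 0.32 (SE, adjusted p = 0.569 in limma), 1 of 10 genes against 7.42% of all genes. Rasgrf2 was the single case of groups that did not overlap among 120 values in comparisons of 2 groups. Its levels were 7.52, 7.64, 7.66 and 7.37 in KO_abx_and_acetate against 7.66 to 8.03 in KO_control, with the highest treated and the lowest control library both at 7.66 to 2 decimals. Such a lack of overlap was seen for 3.83% of all genes in that comparison, and the fold of -0.28 ± 0.19 (SE) did not reach an unadjusted p of 0.05.

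The balance of upper to deep layers was computed for each library as the mean deviation of the 5 upper layer genes from their means over the 35 libraries, minus that of the 5 deep layer genes, on the log2 scale. It ranged from -0.90 in KO_acetate 2 to 0.96 in KO_control 4. The group means ranged from -0.32 in WT_abx to 0.26 in WT_control, and the SD within groups was 0.48, so that 77.6% of the variance of the balance lay within groups. Over all genes the median share within groups was 78.4%, and for the 10 genes it was 67.3% to 93.2%. The share for the balance was close to that of a typical gene. In WT_control 1 to 6 it was -0.09, 0.09, -0.17, 0.48, 0.78 and 0.49, with the 3 females (0.48 to 0.78) above the 3 males (-0.17 to 0.09). In KO_control 1 to 4 it was -0.30, 0.12, 0.15 and 0.96, again with the females (0.15 and 0.96) above the males. In WT_abx_and_acetate the 1 female was also the highest, at 0.73. The other groups did not follow this order. In KO_abx the 1 female (-0.15) was the lowest, in KO_acetate the females (-0.31 and -0.20) lay within the range of the males, and in WT_acetate the library labelled female, whose Y-linked genes go against its label, was the lowest at -0.25.

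**Figure D3:**
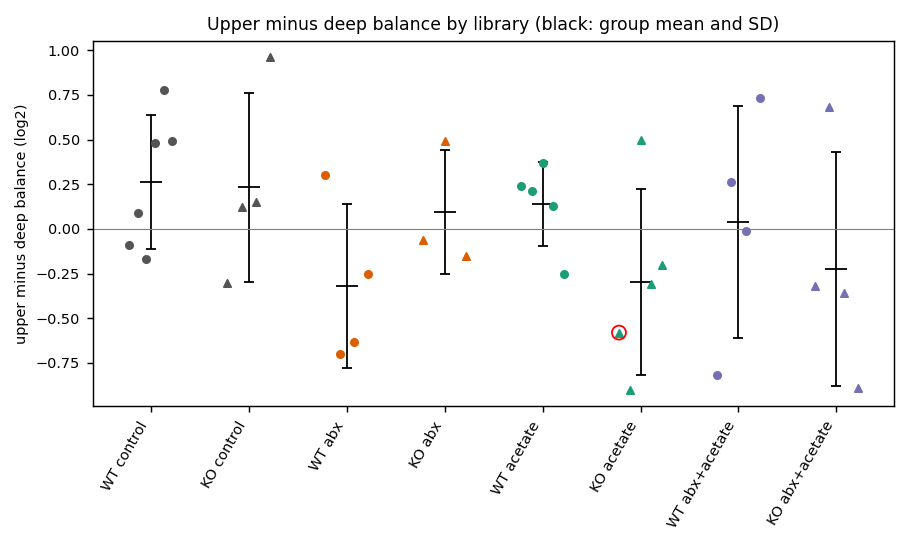
Upper minus deep balance (y axis, log2) of each library by group (x axis). Circles are WT and triangles KO, black bars are the group mean and SD, and the red ring is KO_acetate 1 at -0.58. Libraries of KO_acetate, WT_abx_and_acetate and KO_abx_and_acetate each span most of the range from -0.90 to 0.96, while WT_acetate spans -0.25 to 0.37. Groups overlap in every comparison of 2 groups.

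The difference in mean balance between KO and WT was -0.03 under water, 0.41 under abx, -0.44 under acetate and -0.26 under abx_and_acetate. With sex as an added term these were -0.03, 0.45, -0.48 and -0.37. None exceeded the SD of 0.48 between libraries of a group. Treatment differences in WT were -0.58 for abx, -0.12 for acetate and -0.22 for abx_and_acetate against water. In KO they were -0.14, -0.53 and -0.45. Those for abx in WT and for both acetate settings in KO were close to or above the SD within groups, and the groups overlapped in each. KO_acetate 1 was at -0.58, and KO_acetate 2 was lower still at -0.90. Without KO_acetate 1 the difference between KO and WT under acetate was -0.37, and that between acetate and water in KO was -0.46. Balance is a score over chosen genes and was given no test.

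Within groups, many pairs of layer genes moved together, or in opposite directions, from library to library. Values were centred on their group means, and the 45 pairs of the 10 genes were tested by 100000 permutations within groups, two-sided, with Benjamini-Hochberg adjustment over the 45. All genes of a library share its depth, scaling and cellular makeup. The share of passing pairs among all genes is not given here, so whether the counts below are unusual was not tested. Of 10 deep pairs 6 passed and of 10 upper pairs 3 passed, all of them positive. Of 25 pairs across the layers 15 passed, all of them negative. In the same order, the median r over all pairs of a kind, passed or not, was 0.65, 0.31 and -0.50. Without KO_acetate 1 the counts that passed were 10 of 10, 5 of 10 and 22 of 25, and the medians were 0.70, 0.49 and -0.61. All 20 pairs within a layer class then had a positive r, and all 25 across classes a negative one.

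Across the layers, Rasgrf2 and Bcl11b had r = -0.83 and rho = -0.74 over 35 libraries (permutation p = 1e-05 each, the smallest that can be given, adjusted p = 0.000112 and 9.00e-05). Without the pair of libraries farthest from the median of Rasgrf2, r was -0.65. Cux2 and Tle4, markers of the opposite ends of the cortex, had r = -0.76 and rho = -0.85 (permutation p = 1e-05 each, adjusted p = 0.000112 and 9.00e-05) and r = -0.80 without the farthest libraries. Both pairs remained negative without KO_acetate 1, with r of -0.68 and -0.85.

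Among deep layer genes Bcl11b and Foxp2 had r = 0.78 and rho = 0.85 (permutation p = 1e-05 each, adjusted p = 0.000112 and 9.00e-05), and r = 0.82 without the farthest libraries. Foxp2 and Ntsr1, both of layer VI, had r = 0.73 and rho = 0.74 (permutation p = 2.00e-05 each, adjusted p = 0.00015 and 0.000129), and r = 0.73 without them. The upper pair Cux2 and Rasgrf2, whose promoters are printed above, had r = 0.72 and rho = 0.61 (permutation p = 0.00052 and 0.00053, adjusted p = 0.0014 and 0.00159), r = 0.50 without them and r = 0.54 without KO_acetate 1. Cux1 moved with Pou3f2 (r = 0.69 and rho = 0.69, permutation p = 0.00016 and 0.00025, adjusted p = 0.0006 and 0.000865) and had r = 0.62 without the farthest libraries and r = 0.80 without KO_acetate 1, but Cux1 and its paralog Cux2 had r = -0.09 (permutation p = 0.653, adjusted p = 0.683). Leaving out KO_acetate 1 gave r = 0.12 for Cux1 and Cux2 (permutation p = 0.575). Rorb passed with no other upper layer gene over 35 libraries: r was 0.37 with Cux1, 0.34 with Pou3f2, 0.18 with Cux2 and -0.03 with Rasgrf2. Without KO_acetate 1 these were 0.29, 0.44, 0.54 and 0.33, and only the pair of Rorb and Cux2 passed.

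Fezf2 was the gene whose relations rested most on 1 library. Its r with Bcl11b, the factor that acts with it in layer V neurons, was -0.23 over 35 libraries (permutation p = 0.487, adjusted p = 0.577) and 0.82 over the 34 without KO_acetate 1 (permutation p = 1e-05, adjusted p = 6.43e-05). With Tle4, its r was 0.33 (permutation p = 0.139) and 0.84 (permutation p = 1e-05). In KO_acetate 1 Fezf2 was at 3.07 log2 CPM against 5.47 to 6.30 in the other 4 KO_acetate libraries, and Bcl11b at 7.43 against 5.65 to 6.48. Foxp2 and Ntsr1 were also high there, at 4.21 and 3.16, while Tle4, at 5.76, was within the range of its group. The part of the striatal and oligodendrocyte markers of that library in these values was not tested.

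**Figure D4:**
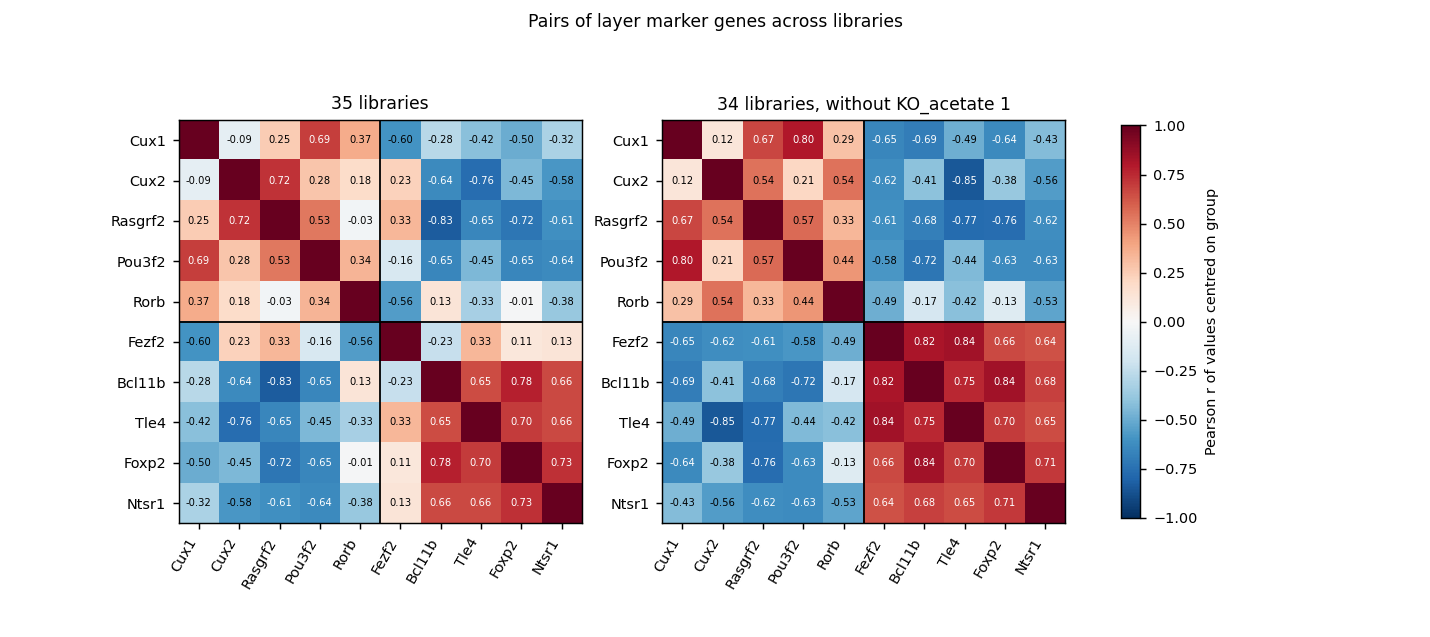
Pearson r between each pair of layer marker genes, after centring on group means, over 35 libraries (left) and over 34 without KO_acetate 1 (right); red is positive and blue negative, and the black lines divide upper from deep layer genes. The deep block at the lower right turns wholly positive, 0.64 to 0.84, once KO_acetate 1 is left out.

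**Figure D5:**
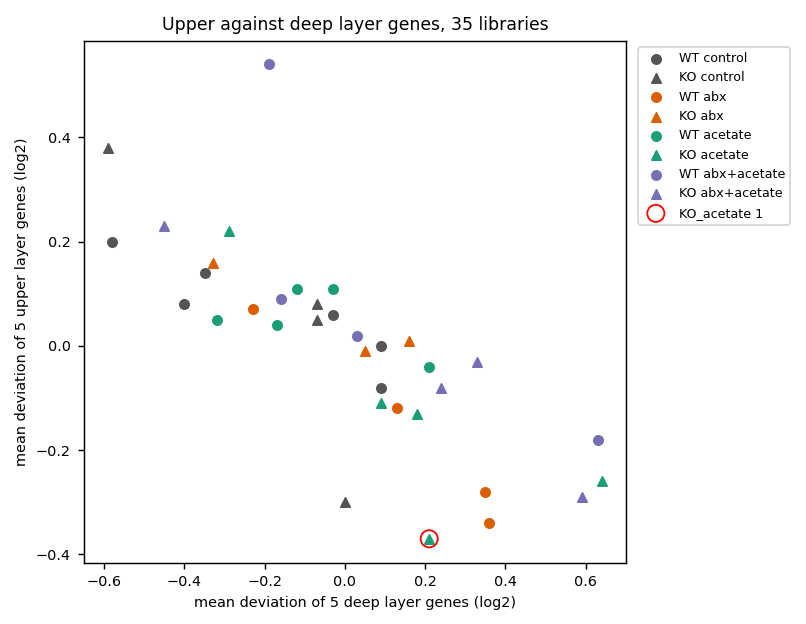
Mean deviation of the 5 upper layer genes (y axis, log2) against that of the 5 deep layer genes (x axis, log2) in each of 35 libraries, by group. Libraries lie along a falling line from upper left to lower right. Libraries of KO_acetate, WT_abx_and_acetate and KO_abx_and_acetate are found toward both ends, and the other groups cover less of the line.

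After centring on group means, the mean deviation of the 5 upper layer genes and that of the 5 deep layer genes had r = -0.80 (rho -0.81), and r = -0.83 without KO_acetate 1, given as a description over libraries with no test. The plot of upper against deep deviation shows the values before centring. Lists of other layer markers, none of them among the 10, were set beside the balance in the same way. The balance of these wider lists, upper minus deep, had r = 0.90 with that of the 10 genes. The 13 wider upper genes as a group had r = 0.78 with the balance of the 10, and the 14 wider layer VI genes had r = -0.84. The 11 wider layer V genes had r = -0.16, and -0.38 without KO_acetate 1. Of the 3 wider lists, that of layer V had the r nearest to 0, but its genes differed. Over the 34 libraries without KO_acetate 1, r was negative for Crym (-0.77), Npr3 (-0.60), Ldb2 (-0.50), Parm1 (-0.34), Etv1 (-0.26) and Rbp4 (-0.25). It was above 0 for Deptor (0.26), Pou3f1 (0.22), Bcl6 (0.13), Slco2a1 (0.06) and Tshz2 (0.05). Single layer VI genes with a large r over the 34 libraries were Rprm (r = -0.92), Hs3st4 (-0.91), which encodes a heparan sulfate sulfotransferase, Syt6 (-0.87), which encodes a synaptotagmin, and Ctgf (-0.76), a marker of the deepest layer. Other layer VI genes followed the balance weakly or not at all: Cplx3 (-0.28), Osr1 (-0.23), Moxd1 (-0.15), Nr4a2 (-0.01) and Sox5 (0.06). Lhx2, an upper layer homeodomain factor, had r = 0.83, while Wfs1, Otof and Scnn1a, also in the upper list, had r of 0.04, -0.05 and -0.03. Whrn, of the same list, went the other way (r = -0.39). The balance moved with some other cell types as well: r was 0.62 with 7 astrocyte markers, 0.60 with 9 interneuron markers, 0.56 with 6 endothelial markers, 0.36 with 8 microglia markers and -0.36 with 10 oligodendrocyte markers. With 13 striatal markers r was -0.25 (rho -0.49), and -0.55 without KO_acetate 1. With the RNA integrity number r was -0.03 and with depth -0.01. The part of these cell types in the balance was not tested.

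None of the 38 wider layer genes was called in any of the 16 comparisons (smallest adjusted p 0.168 in limma). For KO against WT under acetate, the wider upper list had 1 of 13 folds above 0 (median -0.34, with 3 at an unadjusted p under 0.05) and the layer VI list 12 of 14 (median 0.59, with 4), where 5.97% of all genes had such a p. Lhx2, at -0.39 ± 0.13 (SE, adjusted p = 0.827 in limma), and Moxd1, a layer VI marker at 0.60 ± 0.20 (SE, adjusted p = 0.827), had the smallest p on each side. The layer V list had 3 of 11 folds above 0 (median -0.12). Markers of other cells had these values in the same comparison: all 13 striatal markers had folds above 0 (median 0.69, 6 at an unadjusted p under 0.05), as did all 10 oligodendrocyte markers (median 0.80, 8 at that p), and the 7 excitatory markers had a median of -0.32. None of these was called, and their part in the folds of the layer genes was not tested. Without KO_acetate 1 the medians were -0.20 for the upper list (2 of 13 above 0), 0.33 for layer VI (12 of 14), 0.08 for layer V (9 of 11), 0.10 for the striatal, 0.44 for the oligodendrocyte and -0.05 for the excitatory markers. At an unadjusted p under 0.05 were then 2 upper, 1 layer VI, 1 layer V, 1 striatal, 0 oligodendrocyte and 1 excitatory gene, against 2.57% of all genes. For abx against control in WT, the upper list had 2 of 13 above 0 (median -0.27) and the layer VI list 12 of 14 (median 0.38), while the layer V list had 8 of 11 (median 0.13). For acetate against control in KO the medians were -0.22, -0.07 and 0.40 for the upper, layer V and layer VI lists, and -0.14, 0.01 and 0.10 without KO_acetate 1. The median fold over all genes was 0.00 in these comparisons.

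For each of the 10 genes, the 3 genes of the whole matrix with the highest r over the 35 libraries, after centring on group means, were listed as a description. For the layer VI genes they included other layer VI genes: Hs3st4 (r = 0.91), Nxph3 (0.90), which encodes a neurexophilin, and Rprm (0.82) for Tle4, and Sulf1, Rprm and Syt6 (0.90 each) for Foxp2. For Ntsr1 they were Rai14 (0.85), Efnb3 (0.80) and Ryr3 (0.80). Fezf2 was most like Ldb2, a layer V gene, Dkk3 and Coro2a (0.91 each). Bcl11b was most like Fam163b (0.94), the dopamine receptor gene Drd1 (0.93) and St3gal1 (0.91).

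On the upper side, Pou3f2 was most like its paralog Pou3f3 (0.85), Scrt1 (0.82) and Nfic (0.82). Cux1 was most like Atp1b2 (0.90), Slc4a4 (0.87) and Camk2n2 (0.86), of which Atp1b2 and Slc4a4 are well known from astrocytes. Cux2 was most like Iqsec2 (0.89), Car4 (0.87) and Camk2a (0.87), and Rasgrf2 like Mylk3 (0.89), Exph5 (0.85) and Vip (0.84), the last a peptide of interneurons. Rorb had the lowest values of likeness, with Rap2c (0.70), Ccnb2-ps (0.70) and Dbpht2 (0.67). Without KO_acetate 1, 14 of the 30 genes stayed on the list, Hs3st4, Pou3f3 and Atp1b2 among them. Drd1, Ldb2, Camk2a and Vip did not.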

How the data were processed

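RNA from mPFC punches of 35 mouse libraries was purified on columns and sequenced as directional, paired-end libraries, per the labels' protocols. The authors deposited 1 matrix of log2 CPM for 14870 genes. The submitters' processing notes name limma; the sources used here name no aligner, counter or genome build. Each value equals the log2 CPM of reads plus 0.5 on a scaled library size, and whole reads were recovered for 100% of values (tolerance 0.01), which gave depths of 12.8 to 28.0 M reads. More depth lowers counting error. Since the values are log2 CPM, no count test was used.

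Tests were fitted with limma 3.58.1 in R 4.3.3 on all genes and all 35 libraries. The fit held 8 group means, the labelled sex as an added term, and a trended prior variance. P-values were adjusted by Benjamini-Hochberg over 14870 genes in each of 16 comparisons, with 0.05 as threshold. The 8 group means alone leave 27 residual degrees of freedom, before the sex term is added. The script was tested on simulated data. A fold and its p are printed where the unadjusted p was under 0.05, or beside one for another reason given there. Intervals are 95%. Correlations, scores and figures used Python 3.11.15. Members and marker lists were chosen with earlier results of these data known. Promoters come from RefSeq (GRCm38.p6), gene positions and exon lengths from GENCODE vM21 (GRCm38). Alternatives were another low-value filter, voom weights, 2 reads added, quantile normalization, no sex term, only the groups compared, and libraries left out. No 2 libraries of a group agreed within sampling noise (chi-square per degree of freedom at least 6.5).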

Additional observations from a re-analysis of the deposited data

Results flagged for a closer look

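Of 77 sets of values for 1 gene or the balance in groups of 4 to 6 libraries, 7 held a library whose gap to the nearest other was large for its group. Chance alone flags about 5%, or 1 in 20, of such groups. Of these, 3 were in WT_abx_and_acetate 4, the shallowest library: Cux1 at 6.77 log2 CPM (5.98 to 6.08 in the other 3), Pou3f2 at 5.63 (5.06 to 5.11) and Rorb at 4.93 (4.26 to 4.38), all upper layer genes and all high. Fezf2 was at 3.07 in KO_acetate 1 (5.47 to 6.30 in the other 4). Cux1 was at 6.61 in WT_acetate 3 (5.97 to 6.15 in the other 4), and Rorb at 3.85 in WT_control 4 (4.30 to 4.44 in the other 5). Ntsr1 was at 3.31 in WT_abx_and_acetate 1 (2.50 to 2.59 in the other 3).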

How the results depend on the processing

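No gene of the 10 was called in any of 43 fits, whose smallest adjusted p was 0.113 in limma. The number of values at an unadjusted p under 0.05, 10 of 160, was 17 when only the groups compared entered each fit. It was 6 to 22 when a library was left out, with 6 without KO_acetate 1 or KO_acetate 4 and 22 without KO_acetate 3. In the other fits it was 8 to 10. With only the groups compared, the count went from 4 to 1 for KO against WT under acetate. For abx against control in WT it went from 1 to 5. The 10 folds at an unadjusted p under 0.05 kept their sign in all 172 recomputed values. They were picked by their p in these data and the fits share most libraries, so a kept sign was likely beforehand. The fold of Fezf2 under acetate, not among the 10, turned sign without KO_acetate 1. Under these alternatives no balance difference moved by more than the SD within groups, and 10 changed sign, in 5 comparisons. Without KO_acetate 1, 5 upper pairs and 10 deep pairs passed, and Cux2 with Foxp2 no longer did (r = -0.38, permutation p = 0.0635, adjusted p = 0.0732). No paired analysis was possible because the labels carry no replicate numbers. Groups of 3 to 6 libraries limit these comparisons; the lowest library of the lowest gene, Ntsr1, held 69 reads. The marker lists without KO_acetate 1 were added after the data were seen.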

Other observations

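Over the 34 libraries without KO_acetate 1, the genes of the whole matrix whose values, centred on group means, were most like the balance included several outside the layer lists. They were looked up after the values were seen and are given as a description. On the deep side were Spon1 (r = -0.95), which encodes the secreted protein F-spondin, Nxph3 (-0.94), Mctp1 (-0.90), Efnb3 (-0.89), an ephrin, and Chrna4 (-0.88), a nicotinic acetylcholine receptor subunit. On the upper side were Btbd3 (0.87), known for orienting the dendrites of cortical neurons, Prex1 (0.83), Pdzrn3 (0.81) and Camta2 (0.80). Rgs9, a striatal marker that the prefrontal libraries also held at 2.99 to 4.24 log2 CPM, was on the deep side as well (-0.86).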
